A study of Mus musculus with 88 samples.

Results

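The genes described here are 10 mouse genes of glucose transport and glycolysis: Slc2a1, Slc2a3, Hk1, Hk2, Pfkl, Pfkp, Aldoa, Eno1, Pkm and Ldha. They were chosen by name from a table of 21942 loci, and each name stood at 1 row. Their levels were read in 26 RNA-seq libraries of mouse embryonic stem cell (ESC) lines and fibroblasts, out of 88 samples in all; the 62 bisulfite samples were not analysed here. The ESC lines were F1 hybrids of 2 kinds. The B6 cross joined 129X1/SvJ and C57BL6 and gave 16 libraries, 2 XX and 2 XY lines in each of 4 media. These media were 2i, which pairs an inhibitor of MEK with an inhibitor of GSK3, t2i, a version with less of the MEK inhibitor, a2i, an alternative in which a Src inhibitor replaces that of MEK, and serum with LIF. The MSM cross joined 129X1/SvJ and MSM/Ms and gave 10 libraries: 4 lines in 2i (2 XX, 2 XY), 2 lines in serum, labelled S (1 XX, 1 XY), 1 XX line moved from 2i to serum (2i-S), 2 libraries of mouse embryonic fibroblasts (MEFs) and 1 of fibroblasts that came from an ESC line derived in 2i (2i MEF). All ESC lines were at passage 3 except 2i-S, which was passaged 14 times more. MEFs were at passage 1, and the 2i MEF library (XX) is listed at passage 5 with 1 further passage. For both MEF libraries the title and the description disagree on sex. XX line 15 of the MSM cross supplied the 2i-S library, the 2i MEF library and 1 of the 2i libraries.

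Glycolysis turns glucose into pyruvate in the cytoplasm and yields ATP without oxygen. Glucose enters through facilitated transporters, is trapped by hexokinase, is committed to the pathway by phosphofructokinase, and is split by aldolase; enolase and pyruvate kinase complete the later steps, and lactate dehydrogenase A turns pyruvate into lactate. Pluripotent cells are known for a high rate of glycolysis, and several of these genes are textbook targets of the hypoxia-inducible factors and of MYC.

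Values are RPKM, a read density scaled for transcript length and library size, so levels can be set beside each other across genes. The sum over genes lay between 624274 and 934309, with 11234 to 12558 genes at 1 RPKM or more. Depth in reads is unknown; its ratio between libraries, estimated from steps among low values, ran from 0.768 to 1.86 times that of one B6-cross 2i line. Nothing in the labels says that lines came from separate embryos, so p-values measure the spread between these lines. Differences are on the log2(RPKM + 1) scale, tested with limma and adjusted by Benjamini-Hochberg over all genes of a fit; a gene was called when its adjusted p was under 0.05. ESC libraries expressed all 12 pluripotency markers checked, and MEFs 1 of them at 1 RPKM or more. Serum lines of the B6 cross also held fibroblast RNA: the 20 fibroblast markers stood at a median of 8.55% to 14.8% of their level in MEFs, against at most 0.0345% in 2i, t2i and a2i lines of that cross, and 0.598% to 1.85% in the S lines of the MSM cross. Their summed level was 1716 to 2467 RPKM in B6-cross serum and 229 to 399 RPKM in 2i, where Dcn, Lum, Postn and Prrx1 were listed at 0. Fn1 alone made up 214 to 390 RPKM of the 2i sums and 488 to 582 RPKM of the serum sums. Of 7 primitive endoderm markers tested, 5 were lower in 2i than in serum, and Sox17 and Lama1 were not called. The list of 10 summed to 100.5 to 304 RPKM in serum and 12.2 to 21.1 in 2i. Col4a1, which read 495 and 538 RPKM in MEFs, made up 74.4 to 175 RPKM of the serum sum. Of the 5, Col4a1, Dab2 and Gata6 were called higher in MEFs than in MSM-cross 2i lines (3.98, 5.80 and 1.76). Gata4 was lower there (-0.85) and Amn was not called. Of 7 trophectoderm markers tested, 5 were lower in 2i, and Eomes and Gata3 were not called; that list of 9 summed to 97.0 to 206 RPKM in serum and 48.1 to 61.5 in 2i. Fibroblast RNA was subtracted in an alternative fit, given below for some genes. The part of primitive endoderm and trophectoderm cells in the results was not tested. In bulk RNA, fewer cells of a type and less RNA per cell cannot be told apart.

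All 10 genes were expressed in every ESC library. The most abundant were Eno1, Aldoa, Pkm and Ldha. Eno1, the housekeeping enolase, stood at 1702 ± 138 RPKM (SD, n = 4) in B6-cross 2i lines, Aldoa, the main aldolase of growing cells, at 1584 ± 184, Pkm, the pyruvate kinase of dividing cells, at 1046 ± 113, and Ldha at 775 ± 218. The high-affinity glucose transporter Slc2a3 (GLUT3) was 4.18 to 4.52 times as abundant as Slc2a1 (GLUT1) in those lines, and above it in every ESC library. The least abundant member was Hk1, the constitutive hexokinase, at 54.3 ± 18.2 RPKM. Ordered by their mean, the 9 groups form 80 neighbouring pairs over the 10 genes, and in 63 of these the library ranges overlapped. The groups hold 1 to 4 libraries, and the count was not made over all genes, so it describes these values only.

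**Figure D1:**
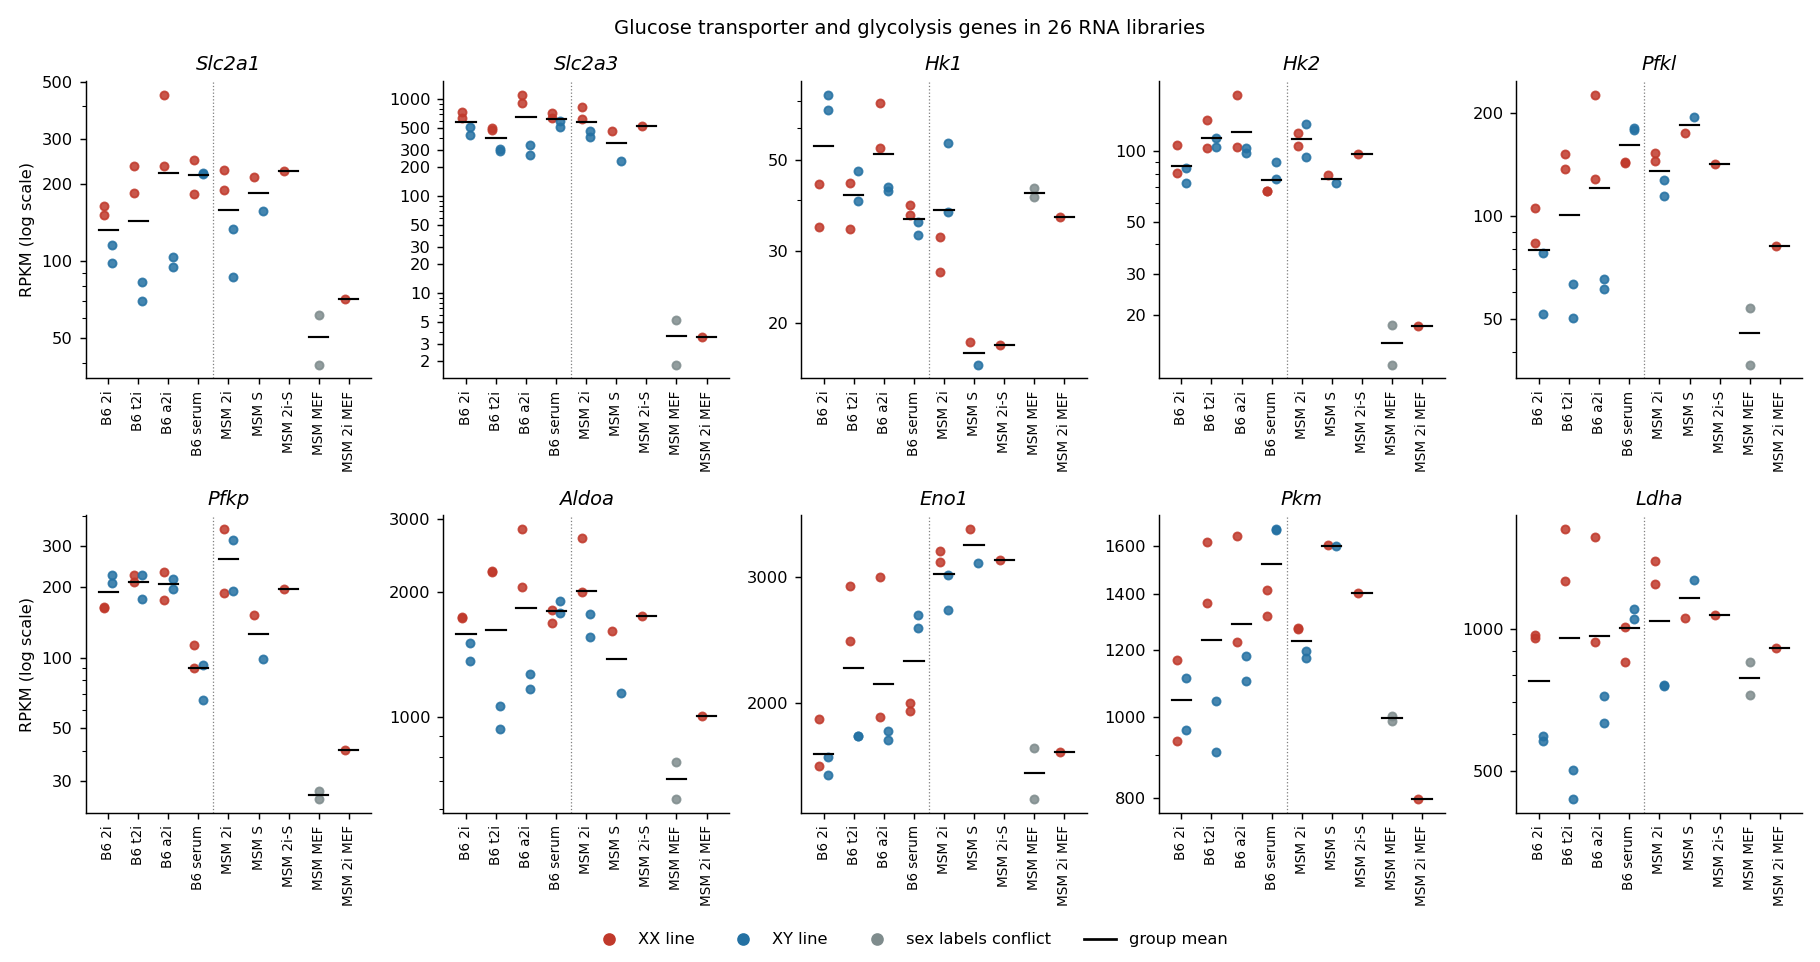
RPKM (log axis) of the 10 genes in each of the 26 libraries, by cross and medium; points are libraries, red for XX and blue for XY lines, grey for MEFs whose sex labels conflict, and bars are group means. In 2i, t2i and a2i of the B6 cross the XX lines lie above the XY lines for Slc2a1, Slc2a3, Pfkl, Aldoa and Ldha, and MEFs lie far below ESCs for Slc2a3, Hk2 and Pfkp.

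The first question was how the inhibitor media differ from serum. In the B6 cross, 7 of the 10 genes were called between 2i and serum: Hk1 and Pfkp were higher in 2i, and Slc2a1, Pfkl, Eno1, Pkm and Ldha were lower. Of all 13150 genes tested, 47.6% were called, 16.8% higher and 30.7% lower. The median difference was -0.30 over the 10 genes and -0.09 over all genes. Between t2i and serum 7 were called (2 higher, 5 lower; 43.8% of all genes), and between a2i and serum 4 (3 higher, 1 lower; 37.4% of all genes). These comparisons share the serum libraries. Of the 5 genes lower in t2i, XX lines alone gave -0.48 for Slc2a3 and -0.03 for Slc2a1. They gave 0.01 for Pfkl, 0.12 for Pkm and 0.36 for Aldoa. For all but Slc2a3 the lower mean thus came from the XY lines. In t2i the calls of Aldoa and Pkm were lost when any of 7 and of 5 of the 8 libraries, respectively, was left out. Of the MSM-cross comparisons, 2i against S called 4 (Hk1, Pfkp and Aldoa higher, Pkm lower; 17.0% of 13443 genes). Without S XY line 12 none of these 4 calls remained, and those of Pfkp, Aldoa and Pkm were each lost when any of 5 of the 6 libraries was left out. The Hk1 call was lost without line 12 alone.

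Of the glucose transporters, Slc2a1 serves basal uptake in most cells. Its level in B6-cross 2i was 164 and 152 RPKM in the XX lines and 116 and 98.4 RPKM in the XY lines, and in serum 247 and 183 RPKM in the XX lines and 219 and 220.0 RPKM in the XY lines. Every 2i line was below every serum line, with a difference of -0.73 (SE 0.17, limma adjusted p = 0.00333). In t2i the difference from serum was -0.77 (SE 0.17, limma adjusted p = 0.00262), and in a2i -0.27 (SE 0.17, limma adjusted p = 0.236). Without a2i XX line a18 the a2i difference was -0.50 and was called, and without XX line a4 it was -0.04. The MSM cross gave 226 and 189 RPKM in the XX and 133 and 86.8 in the XY lines in 2i, and 212 (XX) and 157 (XY) in S, which overlap (-0.29 (SE 0.24, limma adjusted p = 0.437)).

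Slc2a3, the transporter of neurons and early embryos, lies on chromosome 6. In B6-cross 2i it measured 739.7 and 635 RPKM in the XX lines and 512 and 429 RPKM in the XY lines, and in serum 728 and 647 RPKM in the XX lines and 596 and 521 RPKM in the XY lines. These ranges overlapped, and the difference of -0.13 (SE 0.10, limma adjusted p = 0.33) was not called. In t2i it measured 485 and 500.1 RPKM in the XX lines and 306 and 292 RPKM in the XY lines, below all serum lines, with a difference of -0.69 (SE 0.10, limma adjusted p = 0.000147). The MSM cross ran the other way in sign, with 840.1 and 620.4 RPKM in the XX lines and 473 and 407 RPKM in the XY lines in 2i, and 473 (XX) and 231 (XY) in S. That difference of 0.77 (SE 0.29, limma adjusted p = 0.112) was not called.

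The hexokinases phosphorylate glucose. Hk1 was higher in 2i than in serum in both crosses. In the B6 cross it measured 43.8 and 34.3 RPKM in the XX lines and 72.6 and 66.6 RPKM in the XY lines in 2i, and 36.7 and 38.8 RPKM in the XX lines and 32.9 and 35.3 RPKM in the XY lines in serum. The groups overlapped, since the higher level came from the XY lines (1.01 (SE 0.16)) and the XX lines gave 0.04 (SE 0.16); the mean of both was 0.52 (SE 0.11, limma adjusted p = 0.00227). In the MSM cross all 4 lines in 2i (32.4 and 26.6 RPKM in the XX lines and 55.1 and 37.4 RPKM in the XY lines) lay above both S lines, at 17.9 and 15.8 RPKM, a difference of 1.08 (SE 0.23, limma adjusted p = 0.017). The 2i-S library, from line 15 once in 2i and then in serum, read 17.6 RPKM, within the range of the S lines. The 2i library of line 15 read 32.4 RPKM. The Hk1 difference of 2i-S from the 2i group was -0.83 (SE 0.31), which rests on 1 library and was not called.

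Among the comparisons of media with serum, Hk2, the regulated hexokinase, was called only in t2i and a2i. Its levels were 136 and 103 RPKM in the XX lines and 104 and 114 RPKM in the XY lines in t2i, 104 and 174 RPKM in the XX lines and 98.4 and 103 RPKM in the XY lines in a2i, and 67.5 and 67.3 RPKM in the XX lines and 75.7 and 89.8 RPKM in the XY lines in serum. All t2i and a2i lines exceeded all serum lines, by 0.60 (SE 0.15, limma adjusted p = 0.00637) and 0.64 (SE 0.15, limma adjusted p = 0.00522). For 2i the difference was 0.19 (SE 0.15, limma adjusted p = 0.307) in the B6 cross and 0.54 (SE 0.19, limma adjusted p = 0.0872) in the MSM cross. Whether 2i differs in this from t2i was tested directly, and t2i minus 2i was 0.40 (SE 0.15, limma adjusted p = 0.128).

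In 2i of the B6 cross, the largest differences from serum among the 10 genes in each direction were those of the phosphofructokinase genes. Pfkp, the platelet-type subunit, was 164 and 164 RPKM in the XX lines and 224 and 208 RPKM in the XY lines in B6-cross 2i and 113 and 90.2 RPKM in the XX lines and 66.1 and 93.6 RPKM in the XY lines in serum. The groups did not overlap, and the difference was 1.07 (SE 0.13, limma adjusted p = 1.71e-05). Pfkl, the liver-type subunit, moved the other way, from 105 and 83.5 RPKM in the XX lines and 77.8 and 51.7 RPKM in the XY lines in 2i to 143 and 144 RPKM in the XX lines and 178 and 181 RPKM in the XY lines in serum. Again no 2i line reached a serum line, with a difference of -1.04 (SE 0.17, limma adjusted p = 0.000217). Both were also called in t2i (Pfkp 1.22, Pfkl -0.82) and in a2i (Pfkp 1.19, Pfkl -0.62). For Pfkl these lower means came from the XY lines. Its difference in XX lines was 0.01 (SE 0.24) in t2i and 0.25 (SE 0.24) in a2i. In the other cross Pfkp was called at 1.03 (SE 0.28, limma adjusted p = 0.0436), with 0.76 to 1.30 when 1 library was left out, while Pfkl, at -0.46 (SE 0.18, limma adjusted p = 0.115), was not.

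Which of the pair was the more abundant differed between media. The RPKM ratio of Pfkp to Pfkl was 0.371 to 0.792 in the 4 B6-cross serum lines and 1.03 to 4.03 in the 12 lines in 2i, t2i and a2i. For MSM-cross lines it was 0.510 and 0.875 in S and 1.31 to 2.49 in 2i. The 2i-S library, from line 15, stood at 1.39, within the 2i range, while the 2i library of line 15 stood at 2.32. MEFs stood at 0.463 and 0.736. Within the inhibitor media of the B6 cross the 6 XY lines (2.88 to 4.03) lay above the 6 XX lines (1.03 to 1.97). The muscle-type gene Pfkm, the third subunit, was at 29.1 ± 4.28 RPKM in 2i and 24.2 ± 3.21 in serum (SD, n = 4). With fibroblast RNA subtracted from the serum lines, Pfkp and Pfkl kept their calls in 2i, t2i and a2i against serum.

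**Figure D2:**
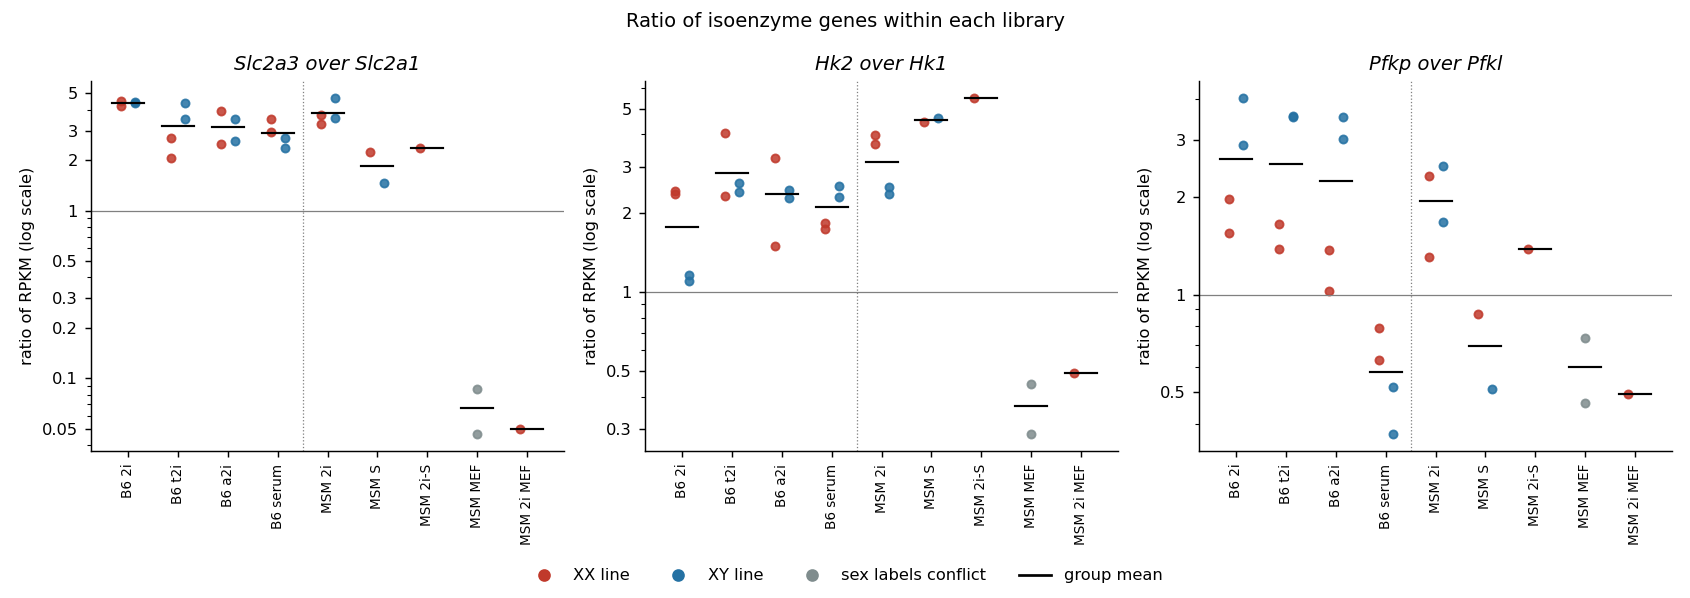
Ratio of RPKM within each library (log axes) for Slc2a3 over Slc2a1, Hk2 over Hk1 and Pfkp over Pfkl, by group; points are libraries and bars group means. Pfkp over Pfkl lies below 1 in all serum and S lines and in MEFs, and above 1 in every line in 2i, t2i, a2i and 2i-S.

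Among the enzymes of the later steps, Pkm was lower in 2i than in serum in both crosses. It measured 1170.0 and 936 RPKM in the XX lines and 1113 and 966 RPKM in the XY lines in B6-cross 2i and 1415 and 1319 RPKM in the XX lines and 1669 and 1675 RPKM in the XY lines in serum. All 2i lines were below all serum lines, with a difference of -0.54 (SE 0.11, limma adjusted p = 0.00144), and in the MSM cross all 2i lines were below both S lines, with a difference of -0.38 (SE 0.10, limma adjusted p = 0.0338). Eno1 measured 1900.2 and 1633 RPKM in the XX lines and 1683 and 1589.6 RPKM in the XY lines in 2i, and 1949.9 and 2001 RPKM in the XX lines and 2655 and 2548 RPKM in the XY lines in serum, with no overlap and a difference of -0.42 (SE 0.12, limma adjusted p = 0.0122). After subtraction of fibroblast RNA the Eno1 difference was -0.29 (adjusted p = 0.0676) and no longer called. Ldha measured 956 and 973 RPKM in the XX lines and 580.1 and 592 RPKM in the XY lines in 2i, and 1009 and 849.8 RPKM in the XX lines and 1049 and 1104 RPKM in the XY lines in serum, so that only the XY lines in 2i stood clear of serum. The Ldha difference of -0.41 (SE 0.14, limma adjusted p = 0.0294) lost its call when any of 7 of the 8 libraries was left out (-0.47 to -0.35), and after subtraction of fibroblast RNA (-0.26, adjusted p = 0.157).

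Aldoa, which splits fructose bisphosphate, differed between the crosses. In the B6 cross it measured 1740.3 and 1729 RPKM in the XX lines and 1504 and 1361 RPKM in the XY lines in 2i, and 1685 and 1815 RPKM in the XX lines and 1785 and 1904 RPKM in the XY lines in serum, with a difference of -0.19 (SE 0.10, limma adjusted p = 0.133). In the MSM cross it measured 2706 and 2001 RPKM in the XX lines and 1776 and 1560.0 RPKM in the XY lines in 2i, and 1614 (XX) and 1141 (XY) in S, with a difference of 0.54 (SE 0.15, limma adjusted p = 0.0482). The difference between the crosses was itself tested: the 2i effect was higher in the MSM cross by 0.72 (SE 0.18, limma adjusted p = 0.0198) for Aldoa and by 0.89 (SE 0.19, limma adjusted p = 0.0116) for Slc2a3. These were the only 2 of the 10 genes called, against 11.6% of 13330 genes. Without S XX line 8 the Aldoa call was lost and Slc2a3 remained; without S XY line 12 both were lost, with Slc2a3 at 0.74.

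**Figure D3:**
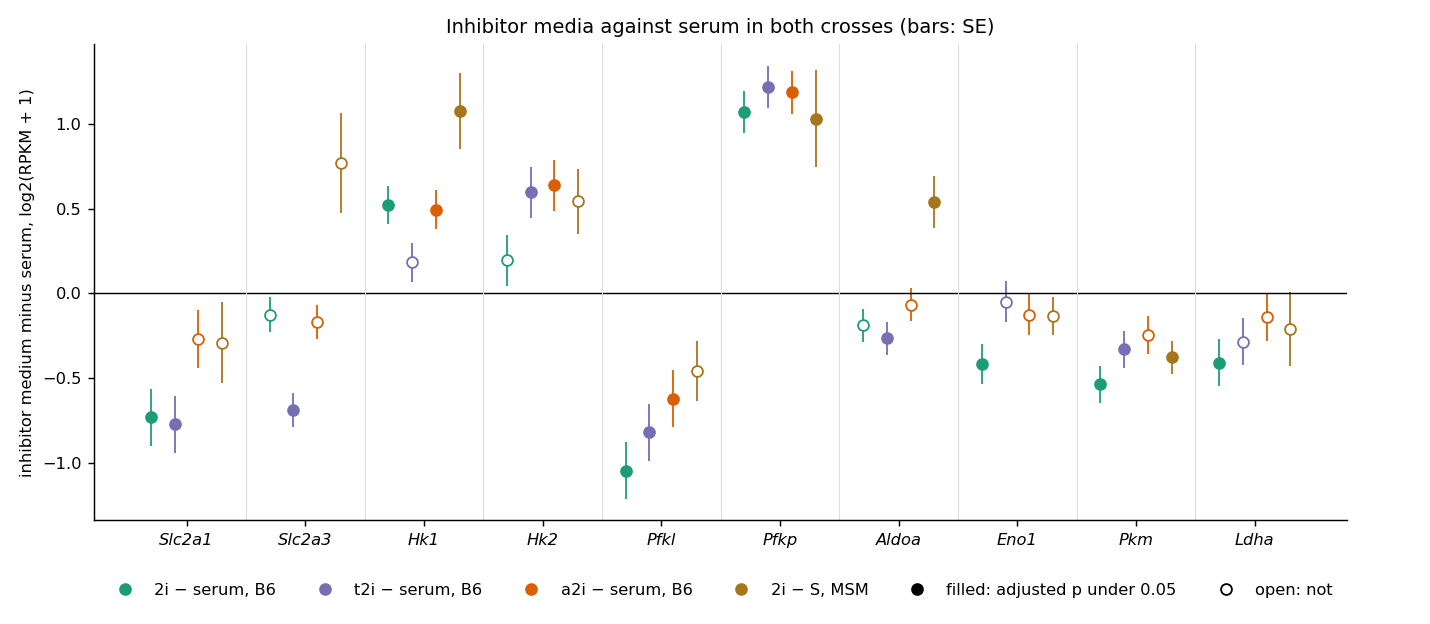
Difference of 2i, t2i and a2i from serum in the B6 cross and of 2i from S in the MSM cross for each gene, on log2(RPKM + 1), with standard errors; filled points have a limma adjusted p under 0.05. Pfkp is filled and above 0 in all 4 comparisons, and Pkm and Pfkl lie below 0 in all 4. Points of the B6 cross are means over XX and XY lines, which differ for some genes.

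The next question was whether XX and XY lines differ. Averaged over the 4 media of the B6 cross, Slc2a1, Slc2a3, Pfkl, Aldoa and Ldha were higher in XX lines, and no member was called lower. Over all genes 41.5% were called, 21.4% higher and 20.0% lower. The differences were 0.91 (SE 0.12, limma adjusted p = 6.11e-05) for Slc2a1 and 0.83 (SE 0.07, limma adjusted p = 1.74e-06) for Slc2a3. Pfkl gave 0.75 (SE 0.12, limma adjusted p = 0.000262), Aldoa 0.59 (SE 0.07, limma adjusted p = 2.42e-05) and Ldha 0.74 (SE 0.10, limma adjusted p = 7.24e-05). None of the 10 genes lies on the X chromosome; they are on chromosomes 4, 6, 7, 9, 10 and 13.

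The difference was then taken within each medium, a comparison added after these values had been seen. Within t2i 7 of the 10 genes were called, all higher in XX lines (18.9% of all genes called); within a2i 6 were called, all higher (28.3%); within 2i 3 were called, 2 higher and 1 lower (25.1%). Within serum none was called by limma (1 at an unadjusted p under 0.05; 7.29% of all genes), and 7 of the 10 differences were negative. The serum interval for Slc2a1 was -0.57 to 0.47, and for Aldoa -0.38 to 0.22 (95%).

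In t2i the largest sex difference was that of Ldha, at 1629 and 1262 RPKM in the XX lines and 436 and 503 RPKM in the XY lines, 1.61 (SE 0.20, limma adjusted p = 0.000149). Slc2a1 measured 235 and 184 RPKM in the XX lines and 69.7 and 83.0 RPKM in the XY lines there (1.44 (SE 0.24, limma adjusted p = 0.00121)), and Aldoa 2235 and 2244 RPKM in the XX lines and 934 and 1062 RPKM in the XY lines (1.17 (SE 0.14, limma adjusted p = 0.000113)). Neither gene overlapped between the sexes, with 2 lines of each, a separation that was not counted over all genes. Pfkl gave 1.34 (SE 0.24, limma adjusted p = 0.00176), Slc2a3 0.72 (SE 0.14, limma adjusted p = 0.00406), Pkm 0.61 (SE 0.16, limma adjusted p = 0.0155) and Eno1 0.57 (SE 0.17, limma adjusted p = 0.0342). The Eno1 call was lost without any of 3 of the 4 libraries and the Pkm call without either of 2.

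In a2i the transporters differed most. Slc2a3 measured 914 and 1116 RPKM in the XX lines and 334 and 268 RPKM in the XY lines, with a difference of 1.75 (SE 0.14, limma adjusted p = 9.83e-06). Slc2a1 measured 235 and 445 RPKM in the XX lines and 94.7 and 103 RPKM in the XY lines (1.70 (SE 0.24, limma adjusted p = 0.000367)), and Pfkl 128 and 226 RPKM in the XX lines and 65.3 and 61.4 RPKM in the XY lines (1.41 (SE 0.24, limma adjusted p = 0.00106)). All XX values were above all XY values for these 3 genes, with 2 lines of each sex. How many of all genes separate in this way was not counted. The line XX a18 was the highest of the 4 for 9 of the 10 genes, the exception being Hk1, and the order of XX above XY held for the other XX line in each of these 3. Aldoa gave 0.99 (SE 0.14, limma adjusted p = 0.000348), Ldha 0.85 (SE 0.20, limma adjusted p = 0.00764) and Hk1 0.51 (SE 0.16, limma adjusted p = 0.0326). Without a18 the Ldha difference was 0.48 and lost its call, as it did without XY line a1, and the Hk1 call was lost without any of the other 3 libraries.

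Hk1 was the exception in 2i. Its XX lines read 43.8 and 34.3 RPKM and its XY lines 72.6 and 66.6, a difference of -0.83 (SE 0.16, limma adjusted p = 0.00255), the only call of lower expression in XX lines. Slc2a3 (0.55 (SE 0.14, limma adjusted p = 0.0148)) and Ldha (0.72 (SE 0.20, limma adjusted p = 0.0192)) were higher in XX lines there. The Ldha call was lost when any of the 4 libraries in 2i was left out, and that of Slc2a3 without XX line c3 or XY line c6; Hk1 kept its call each time.

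**Figure D4:**
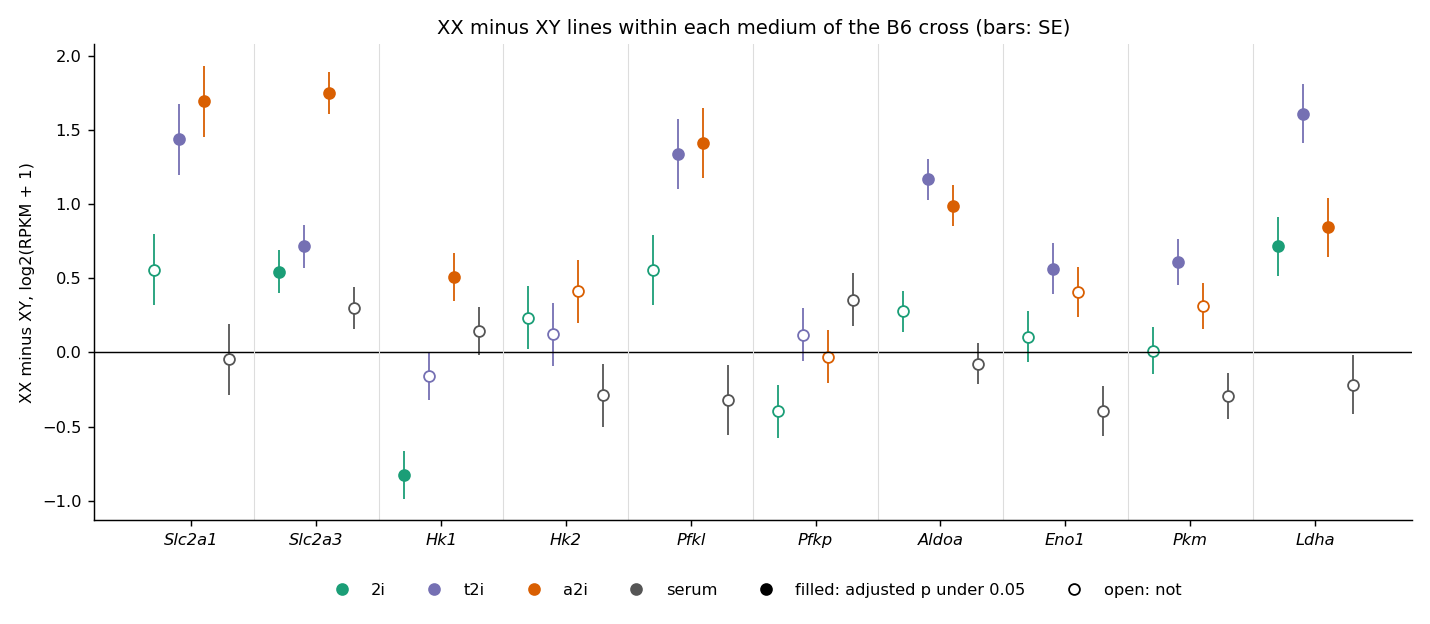
XX minus XY difference of each gene within 2i, t2i, a2i and serum of the B6 cross, on log2(RPKM + 1), with standard errors; filled points have a limma adjusted p under 0.05. Slc2a1, Pfkl, Aldoa and Ldha are above 0 in the 3 inhibitor media and below 0, unfilled, in serum.

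The difference between media was tested as an interaction. For t2i against serum, the XX minus XY difference was larger in t2i for 5 genes (3.15% of all genes called): Slc2a1 by 1.49, Pfkl by 1.66, Aldoa by 1.24, Pkm by 0.90 and Ldha by 1.83 (SE 0.28, limma adjusted p = 0.00731). For a2i against serum it was larger for 4 genes (4.58% of all genes called): Slc2a1 by 1.74, Slc2a3 by 1.45 (SE 0.20, limma adjusted p = 0.00416), Pfkl by 1.74 and Aldoa by 1.07. For 2i against serum only Hk1 was called, at -0.97 (SE 0.23, limma adjusted p = 0.0217), against 8.17% of all genes, a call that was lost when any of 5 of the 8 libraries was left out (-1.14 to -0.80). Ldha, at 0.93 (SE 0.28, limma adjusted p = 0.0608), was not. Leaving out any 1 of the 8 libraries took the t2i count down to between 2 and 4 genes, and Aldoa and Ldha kept their calls each time. Leaving out serum XX line 17 took the a2i count from 4 to 2, and leaving out a2i XX line a4 took it to 7.

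The contrast with serum is therefore given for each sex. In XY lines, the difference of Slc2a1 from serum was -1.03 in 2i, -1.52 in t2i and -1.14 in a2i (SE 0.24 each), and in XX lines it was -0.43 (SE 0.24), -0.03 (SE 0.24) and 0.60 (SE 0.24) on the same scale. For Ldha the t2i values were -1.20 (SE 0.20) in XY and 0.63 (SE 0.20) in XX lines, opposite in sign. For Pfkl they were -1.65 (SE 0.24) in XY and 0.01 (SE 0.24) in XX lines. Pfkp in t2i was higher than in serum by 1.33 (SE 0.18) in XY and 1.10 (SE 0.18) in XX lines. The fibroblast markers stood at a median of 8.55% to 14.8% of their MEF level in all 4 serum lines, XX and XY alike. Fibroblast RNA was also subtracted for the interactions of sex and medium. The interaction calls of Aldoa and Ldha in t2i and of Slc2a3 in a2i remained. These are named because they also kept their call in every other alternative. The other interaction calls are not itemized for the subtracted fit, so their absence here does not mean that they were lost. Any part of fibroblasts in the sex differences beyond this was not tested.

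In the ESC lines of the MSM cross the XX minus XY difference was above 0 for 9 of the 10 genes, Hk1 being the exception, but none was called by limma (3 at an unadjusted p under 0.05; 3.44% of all genes called). Slc2a1 was 0.76 (SE 0.22, limma adjusted p = 0.109) and Slc2a3 0.82 (SE 0.28, limma adjusted p = 0.148). Ldha in 2i read 1396 and 1245 RPKM in the XX lines and 759.6 and 756 RPKM in the XY lines, with no overlap, and in S 1057 in the XX and 1269 in the XY line. Hk1 in 2i was lower in XX lines, at 32.4 and 26.6 RPKM in the XX lines and 55.1 and 37.4 RPKM in the XY lines.

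Among the inhibitor media themselves few members differed. Between t2i and 2i 1 was called, Slc2a3, lower in t2i, with a difference of -0.56 (SE 0.10, limma adjusted p = 0.0054), against 8.08% of all genes. Between a2i and t2i Slc2a3 alone was higher, by 0.52 (SE 0.10, limma adjusted p = 0.0315), against 1.0% of all genes; its t2i and a2i ranges overlap because the a2i XY lines (334 and 268 RPKM) are near the t2i XY lines (306 and 292). That call was lost when any of 7 of the 8 libraries was left out (0.44 to 0.60). Between a2i and 2i none was called by limma (5 at an unadjusted p under 0.05; 13.8% of all genes), yet the sexes went apart for Slc2a3, which was 0.56 (SE 0.14) in XX and -0.65 (SE 0.14) in XY lines. Hk1 did the same, at 0.64 (SE 0.16) and -0.70 (SE 0.16). Without XX line a4 the a2i against 2i count rose from 0 to 6.

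In fibroblasts the more abundant transporter and hexokinase were not those of ESCs. Against the MSM-cross 2i lines, 8 of 10 genes were lower in MEFs and none higher, where 71.1% of all genes were called and the median of all genes was -0.23. Slc2a3 read 5.33 and 1.84 RPKM in the 2 MEF libraries and 407 to 840.1 RPKM in the 2i lines, a difference of -7.06 (SE 0.29, limma adjusted p = 5.5e-07). Slc2a1, which read 61.5 and 39.5 RPKM in MEFs, fell less (-1.58 (SE 0.24, limma adjusted p = 0.000469)), and so was the more abundant transporter there: Slc2a3 stood at 0.0464 and 0.0866 times the level of Slc2a1. Hk2 read 18.2 and 12.3 RPKM in MEFs against 94.0 to 130 in 2i (-2.81 (SE 0.19, limma adjusted p = 5.75e-06)), whereas Hk1, at 40.6 and 42.8, was not called (0.18 (SE 0.23, limma adjusted p = 0.485)). Hk1 was thus the more abundant hexokinase in MEFs and Hk2 in all ESC libraries.

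Of the remaining enzymes, Pfkp differed most. It averaged 26.1 RPKM over the MEF libraries, neither above 27.1, a difference of -3.23 (SE 0.28, limma adjusted p = 2.29e-05), and Pfkl 54.0 and 36.8, -1.57 (SE 0.18, limma adjusted p = 9.08e-05). Aldoa (-1.48 (SE 0.15, limma adjusted p = 5.55e-05)) and Eno1 (-0.92 (SE 0.11, limma adjusted p = 0.00016)) were lower as well. Pkm gave -0.30 (SE 0.10, limma adjusted p = 0.0207), a call that was lost when either MEF library was left out and that changed sign to 0.12 after quantile normalization. Ldha, at 853 and 725 RPKM against 756 to 1396 in 2i, was not called (-0.35 (SE 0.22, limma adjusted p = 0.184)). The 2i MEF library read 3.56 RPKM for Slc2a3 and 17.9 RPKM for Hk2; none of the 10 genes was called against MEFs by limma (3 at an unadjusted p under 0.05; 0.454% of all genes). The 2i-S library likewise had no call against 2i (1 at an unadjusted p under 0.05; 1.22% of all genes). In these fits the lone library takes its spread from the other groups.

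Between the crosses in 2i, Pfkl was higher in MSM-cross lines by 0.79 (SE 0.18, limma adjusted p = 0.0106) and Eno1 by 0.83 (SE 0.11, limma adjusted p = 0.000338), against 18.6% of 13330 genes. Eno1 read 3256 and 3143 RPKM in the XX lines and 2697 and 3015 RPKM in the XY lines in the MSM cross, above every B6-cross 2i line. Cross cannot be told apart from how the libraries of each cross were made and processed, and 2 features of the table differ between them. All 183 Y-linked and 13 mitochondrial loci are listed at 0 in MSM-cross libraries. The ratio of Eno1 to Eno1b, a retrotransposed copy whose reads can be shared with Eno1, was 30.9 to 37.8 in the 16 B6-cross libraries and 144 to 179 in the 10 MSM-cross libraries, MEFs included. Adding the RPKM of both, the cross difference was 0.80 on the log2 scale, against 0.83 for Eno1 alone. Aldoa, Pkm and Ldha also have processed copies in the genome, and the handling of reads that fit several copies is not given.

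Other genes of the pathway were followed in lists. Of 15 other glycolytic enzymes tested between 2i and serum in the B6 cross, 2 rose and 5 fell (median -0.27), a share near the 47.6% of all genes (16.8% higher, 30.7% lower); among them Ldhb, the lactate dehydrogenase subunit of oxidative tissues, rose by 1.09 and Eno2, neuronal enolase, changed with a difference of -1.33. Ldhb was also higher in 2i than in S in the MSM cross, by 1.39. Against the same background, of 13 regulators 2 rose and 7 fell (median -0.57), led by Myc (-2.27), Lin28a (-1.98) and Lin28b (-1.45). Myc read 63.8 and 72.2 RPKM in MEFs and 8.86 to 18.2 RPKM in B6-cross serum lines, which held fibroblast RNA. Lin28a read 0 in both MEF libraries. The part of fibroblast RNA in the difference of Myc was not tested. Of 13 genes that govern the entry of pyruvate to mitochondria 5 rose and 2 fell; Pdk1, a kinase that inhibits pyruvate dehydrogenase, changed with a difference of -1.79, and Pdp2, a phosphatase that activates it, by 0.96. Of 8 pentose phosphate genes 4 rose and none fell, among them Pgd (0.54) and Taldo1 (0.38). The lactate exporter Slc16a3 was lower in 2i, with a difference of -1.20.

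When XX were set against XY lines of the B6 cross, 4 of 7 other sugar and lactate transporters were higher in XX lines and none lower, Slc16a3 by 0.99, where 21.4% of all genes were higher and 20.0% lower. Of 11 hypoxia-responsive genes 6 were higher and none lower (median 0.42), including Vegfa (0.65), P4ha1 (0.60) and Egln1 (0.58), and counts within each medium were as follows. Within a2i 8 of 11 were higher, P4ha1 by 1.61 (28.3% of all genes called), and within t2i 4 (18.9%). Within 2i none was higher and Adm was lower, at -1.54 (25.1%), and within serum limma called none (1 at an unadjusted p under 0.05; 7.29%). Of the 15 other glycolytic enzymes 2 were higher and 5 lower, near the share over all genes. Pgk1, the largest of these at 1.27, lies on the X chromosome, as do G6pdx (0.72), Pdha1 (0.77), Pdk3 (0.87) and Pfkfb1 (1.09), which are higher in XX lines as well. Pfkfb3, an activator of phosphofructokinase that is not X-linked, was higher by 0.89 and within a2i by 2.13.

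Across the 16 B6-cross libraries the members fell into a correlated set and some that stood apart. These correlations, on log2(RPKM + 1), are a description over libraries that share media and sex. Slc2a1 correlated with Pfkl at 0.95 and with Aldoa at 0.94, Aldoa with Ldha at 0.93, and Pfkl with Pkm at 0.91, whereas Pfkp correlated with Pfkl at -0.47 and Slc2a1 with Hk1 at -0.13. Among 8970 genes with a mean of at least 5 RPKM, those most like Slc2a1 were Slc16a3 (0.97) and Egln1 (0.95), a prolyl hydroxylase that marks hypoxia-inducible factors for degradation. Those most like Pfkl were Egln1 (0.96) and Tpi1 (0.95), the triosephosphate isomerase of glycolysis. Tpi1 was also the nearest to Ldha (0.93), and Sept1 the nearest to Pfkp (0.94). Hk1 was most like Atp6v1a (0.93), a subunit of the vacuolar proton pump, Slc2a3 like Gyltl1b (0.93), and Hk2 like Sqle (0.88), an enzyme of cholesterol synthesis. Eno1 was most like its copy Eno1b (0.95), as was Pkm (0.93), and Aldoa like Slc2a1 (0.94).

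Promoter sequence was searched for all members with a known start site, and is printed for 4 of the correlated set. RefSeq (GRCm38.p6) gives start sites for 9 of the 10 genes, and the 250 bases upstream of each were searched on both strands for ACGTG, the core of the hypoxia response element, which also lies within the E-box CACGTG. It occurs upstream of 6 of the 16 start sites, in 5 members (Slc2a1, Hk2, Aldoa, Pkm and Ldha), and of 16.6% of 32851 start sites of all genes. The 2 Aldoa start sites with a match have overlapping windows that hold the same site. Aldoa and Ldha each have a further start site without a match, not printed here. Hk1, Pfkl, Pfkp and Eno1 have no match. CACGTG occurs in 1 member, Ldha, and upstream of 6.02% of all start sites. The sequences of 4 correlated members follow, 5′ to 3′ on the strand of the gene, with each match in capitals: Slc2a1 at chr4:119108495-119108744 (plus strand), Pfkl at chr10:78009808-78010057 (minus), Aldoa at chr7:126799179-126799428 (minus) and Ldha at chr7:46845554-46845803 (plus).
Slc2a1: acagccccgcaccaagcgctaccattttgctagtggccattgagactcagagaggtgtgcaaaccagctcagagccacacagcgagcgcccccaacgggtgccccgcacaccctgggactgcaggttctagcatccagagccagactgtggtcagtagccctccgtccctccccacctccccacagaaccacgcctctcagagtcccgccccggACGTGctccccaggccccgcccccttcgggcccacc
Pfkl: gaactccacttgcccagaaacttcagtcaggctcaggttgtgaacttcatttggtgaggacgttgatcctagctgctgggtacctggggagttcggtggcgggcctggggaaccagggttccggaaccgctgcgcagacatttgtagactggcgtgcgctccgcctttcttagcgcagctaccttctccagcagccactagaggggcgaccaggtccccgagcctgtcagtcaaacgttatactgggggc
Aldoa: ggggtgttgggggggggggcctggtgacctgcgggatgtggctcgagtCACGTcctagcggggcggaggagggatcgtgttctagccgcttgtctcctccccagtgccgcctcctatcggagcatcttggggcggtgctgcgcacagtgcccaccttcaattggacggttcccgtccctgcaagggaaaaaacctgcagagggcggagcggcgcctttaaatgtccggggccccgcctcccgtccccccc
Ldha: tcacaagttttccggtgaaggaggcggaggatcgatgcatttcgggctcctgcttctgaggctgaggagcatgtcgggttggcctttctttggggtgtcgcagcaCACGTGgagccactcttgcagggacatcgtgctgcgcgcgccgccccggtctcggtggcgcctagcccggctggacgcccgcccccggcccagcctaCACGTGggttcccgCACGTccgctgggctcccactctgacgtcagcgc
Ldha holds 3 separate stretches with a match, of which 2 are CACGTG. Slc2a1 holds 1 match that begins 36 bases before the start and Aldoa 1 that begins 202 bases before it. Pfkl, whose values correlate with Slc2a1 at 0.95, holds none in this window. A match describes the letters only.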

How the data were processed

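The deposited table holds gene-level RPKM for 26 libraries in 1 file, made by the authors from stranded mRNA libraries, per the labels' protocols. The submitters' processing notes name cutadapt 1.9.1, TopHat2 2.1.0, Bowtie2 2.2.5, Cufflinks 2.2.1 and mm10; the annotation and the tool that made the values are not given in the sources used here. Values were taken as log2(RPKM + 1), which understates changes of low genes, and tests covered genes that reached 1 RPKM in 2 or more libraries; all 10 members passed. limma 3.58.1 (R 4.3.3, trend, Benjamini-Hochberg) was fitted to medium by sex means (B6 cross, 16 libraries, 8 residual degrees of freedom), to group means with an XX term for ESCs (MSM cross, 10 libraries, 4), and to 14 libraries of both crosses (8). Medium differences are means over XX and XY lines. Recovery was tested on simulated data. The members and 12 gene lists (142 genes) were chosen with earlier results of these data known. Named were all members, at most 3 called genes of a list with the largest change in a comparison, paralogs by level, and the 2 genes that correlate most with each member. The fibroblast share of a library is the median ratio of 20 markers to MEFs. Python 3.11.15 with pandas 2.3.3 made the tables, and matplotlib 3.10.9 the figures.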

Additional observations from a re-analysis of the deposited data

Results flagged for a closer look

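Of 50 combinations of gene and group of 4 libraries, 2 held a library far from the rest, where chance flags about 1 in 20. Both concern XX line a18 of the B6 cross in a2i: Hk2 read 174 RPKM against 98.4 to 104 in the other lines, a gap of 0.926 of the range, and Eno1 read 2993 RPKM against 1778 to 1914, a gap of 0.888.

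The contrast of a medium with serum differed between XX and XY lines by the interaction test in 10 cases. For 2i it was Hk1, at -0.97, a call lost when any of 5 of the 8 libraries was left out. For t2i, compared after the values were seen, it was Slc2a1 (1.49), Pfkl (1.66), Aldoa (1.24), Pkm (0.90) and Ldha (1.83). For a2i, likewise compared afterwards, it was Slc2a1 (1.74), Slc2a3 (1.45), Pfkl (1.74) and Aldoa (1.07). The 2i against serum contrast differed between the crosses for Slc2a3 (0.89) and Aldoa (0.72), higher in the MSM cross.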

How the results depend on the processing

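Of 67 member changes called, 32 kept their call and direction in every alternative run on them, among them Pfkp in 2i, t2i and a2i against serum, Pkm in 2i against serum, the 5 XX minus XY calls of the B6 cross, and Slc2a3, Hk2, Pfkl, Pfkp, Slc2a1 and Aldoa in MEFs. Over 935 alternatives, 793 kept the call, 141 lost it and 1 turned: Pkm in MEFs, 0.12 after quantile normalization. Counts of called members moved as follows. With no sex term the counts were 2 for 2i, t2i and a2i against serum and 0 for t2i against 2i and a2i against t2i. The a2i against t2i count was also 0 with no filter, with quantile normalization and with only the 8 libraries compared. For t2i against serum between the sexes it was 3 with no filter and with quantile normalization. In the MSM cross 2i against S gave 1 with no filter and 2 with median ratio scaling, and XX against XY lines gave 1 with quantile normalization. Between the crosses the count in 2i was 5 with quantile normalization, and that of the 2i effect was 1 with median ratio scaling. With 1 library left out the counts ranged from 0 to 6 for a2i against 2i, 0 to 2 for a2i against t2i, 4 to 8 for a2i against serum, 0 to 2 (2i), 2 to 4 (t2i) and 2 to 7 (a2i) for the sex difference of the medium effect, 1 to 3 for XX against XY within 2i, 0 to 3 for 2i against S, 0 to 1 for XX against XY lines of the MSM cross, 0 to 2 for the 2i effect between crosses and 2 to 4 for the crosses in 2i. For t2i against 2i, a fit with the line number as a replicate block called 0 members, against 1 without it. Deviations of same-numbered lines from the mean of their medium and sex correlated at 0.0057 for numbers 2 and 6. The value is the same for both by construction, because each mean holds 2 lines. Number 3 gave -0.27. Whether the numbers pair the libraries cannot be decided from so few values. Leaving 1 library in a group of medium and sex assumes that it varies like the others. Depth is unknown, and the arms hold 1 to 4 lines, which limits the precision most in the MSM cross. The comparisons of XX with XY lines within a medium and in the MSM cross, the t2i and a2i interactions, and the subtraction of fibroblast RNA among the inhibitor media were chosen after seeing the data.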

Other observations

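The paralogs show which isoenzyme genes these cells leave at low levels. In B6-cross 2i lines Hk3, Hkdc1 and Pklr had mean levels of at most 0.323 RPKM. Aldoc, the brain-type aldolase, stood at 33.5 ± 10.7 RPKM (SD, n = 4) in those lines and 44.7 ± 23.5 (SD, n = 4) in MSM-cross 2i lines. MEFs stood at 2.85 ± 1.06 (SD, n = 2) and the 2i MEF library at 5.98. Eno3, the muscle enolase, was the reverse in MEFs, at 55.4 ± 20.2 RPKM, against 7.39 to 19.6 in B6-cross 2i and 6.65 to 20.6 in MSM-cross 2i. The 2i MEF library, at 18.6 RPKM, lay within both 2i ranges. Which lactate dehydrogenase gene was the more abundant differed by sex in B6-cross 2i: Ldhb read 608 and 764 RPKM in the XX lines, below Ldha at 956 and 973, and 1125 and 1311 RPKM in the XY lines, above Ldha at 580.1 and 592. In all 4 serum lines Ldhb, at 291 to 603 RPKM, was below Ldha, at 849.8 to 1104. In MEFs Ldhb read 60.4 RPKM in both libraries.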
